A study of Mus musculus with 14 samples.

Results

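The 34 genes described here encode the protein folding, quality control and import machinery of the endoplasmic reticulum (ER) together with the sensors and transcription factors of its stress response. They were chosen by name and function, as 9 chaperones and co-chaperones, 2 lectins, 4 disulfide isomerases, 6 members of the stress signalling pathway, 6 members of the degradation pathway and 7 subunits of the translocon. All 34 were listed once in both count tables, which hold 26570 and 25933 genes, and all 34 passed edgeR's filter on low counts, by which 16324 and 16820 genes were compared. RNA came from the dorsal hippocampus of male mice of the C57BL6/J background aged 8 months, with 1 RNA-seq library per sample. THY-Tau22 mice are heterozygous for a mutated human Tau driven in neurons by the Thy1.2 promoter. In the basal experiment, 3 WT and 2 THY-Tau22 libraries came from mice without training, whose labels name no treatment. In the learning experiment, 3 WT mice received saline and stayed in the home cage (WT VEH_HC), 2 WT mice received saline and learned the Morris water maze, a task of spatial memory (WT VEH), 2 THY-Tau22 mice received the carbon nanosphere vehicle CSP and were trained (TAU VEH), and 2 received CSP-TTK21, an activator of the acetyltransferases CBP and p300 carried by CSP, and were trained (TAU MOL). Trained mice were killed 1 h after their last trial. Genotype and vehicle cannot be told apart between WT VEH and TAU VEH, since no WT mouse received CSP.

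The ER folds secreted and membrane proteins. When unfolded proteins accumulate in it, 3 sensors (Ern1, also called IRE1, Eif2ak3, also called PERK, and Atf6) start the unfolded protein response (UPR), which slows translation and switches on chaperone and degradation genes through the transcription factors XBP1, ATF4 and cleaved ATF6. Ddit3, also called CHOP, is a target of ATF4 that is linked to cell death under lasting stress. XBP1 and ATF6 act on a promoter element called ERSE, the letters CCAAT and CCACG separated by 9 bases, and on ERSE-II, the letters ATTGG and CCACG separated by 1 base.

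The RefSeq promoter windows, 250 bases before to 50 bases after each start, were at hand for 28 of the 34 genes and were placed on mm9 by exact match. ERSE, on either strand, lay in 8 of these 28 windows (28.6%), against 35 of 27025 windows of all genes (0.13%). ERSE-II lay in 2 of 28 (7.14%), against 0.037% of all. The UPR element TGACGTGG and the ATF4-type element made of TGATG, 1 base and AAT were in none of the 28 windows and in 0.607% and 0.969% of all windows. The genes were chosen by function, so these shares are given as a description. The sites are shown because 8 of the genes share ERSE, and 2 others ERSE-II, beyond the function of their products. Each is given 5′ to 3′ on the strand of its gene, with 5 bases on either side and the 2 parts of the element in capitals, which read CGTGG and ATTGG where the element lies on the opposite strand. Distances are from the RefSeq start, and the Hspa5 site lies inside the gene of the mm9 annotation, which begins further upstream. Dnajb11, whose ERSE-II begins 7 bases after its start, is not printed.
Hspa5, chr2:34627540-34627568, plus strand, 65 bases before the start: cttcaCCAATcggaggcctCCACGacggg
Dnajc3, chr14:119337044-119337072, plus strand, 105 bases before: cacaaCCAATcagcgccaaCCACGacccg
Creld2, chr15:88649945-88649973, plus strand, 126 bases before: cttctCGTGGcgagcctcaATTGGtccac
Pdia6, chr12:17273292-17273320, plus strand, 98 bases before: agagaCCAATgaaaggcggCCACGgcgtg
Herpud1 (ERSE-II), chr8:96910272-96910292, plus strand, 52 bases before: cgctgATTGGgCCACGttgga
Hsp90b1, first site, chr10:86168378-86168406, minus strand, 212 bases before: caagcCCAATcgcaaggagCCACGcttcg
Hsp90b1, second site, chr10:86168273-86168301, minus strand, 107 bases before: gagtgCGTGGtgaggcacgATTGGtgagt
Calr, chr8:87370969-87370997, minus strand, 162 bases before: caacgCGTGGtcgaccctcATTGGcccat
Canx, chr11:50139297-50139325, minus strand, 145 bases before: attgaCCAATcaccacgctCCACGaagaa
Syvn1, chr19:6046527-6046555, plus strand, 44 bases before: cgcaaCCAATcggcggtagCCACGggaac

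Libraries held 28639121 to 37681155 counts on genes in the basal and 24693713 to 52180305 in the learning experiment. Levels are given as CPM, the count of a gene relative to the library total after TMM scaling, and a gene was called at an adjusted p under 0.05 (edgeR's quasi-likelihood test, Benjamini-Hochberg) with an absolute log2 fold change above 0.2. Thy1, whose promoter drives the transgene, was at 1804 to 2351 CPM in the 6 THY-Tau22 libraries and at 786 to 913 CPM in the 8 WT libraries, so every library went with its labelled genotype. No such check was made for training or drug. The hippocampal neuron markers (10 genes) summed to 11630 to 19670 CPM, with lower sums in the trained THY-Tau22 libraries (13170 to 14200) than in the WT libraries of the same experiment (17130 to 19670). The choroid plexus, a secretory epithelium next to the hippocampus, left its mark in every library: its 16 markers summed to 160 to 417 CPM in WT VEH_HC, 2197 to 3157 in WT VEH, 465 to 546 in TAU VEH, 1074 to 1187 in TAU MOL, 597 to 716 in basal WT and 705 and 1998 in basal THY-Tau22. Libraries also differed in base composition. The rank correlation, across genes, of GC content with a library's deviation from the mean of its experiment was 0.41 to 0.45 in WT VEH_HC, 0.085 and 0.28 in WT VEH, -0.62 to -0.40 in the 4 trained THY-Tau22 libraries, and 0.48 and -0.60 in the 2 basal THY-Tau22 libraries.

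Across the 34 genes, the level per kilobase of exon ran over a wide range in the home-cage WT mice. The calcium-binding lectin Calr was highest, at 166 ± 5.21 CPM per kb (SD, n = 3), followed on this scale by Atf4 (49.4 ± 2.57), the membrane lectin Canx (46.8 ± 1.34), the translocon-associated subunit Ssr2 (43.5 ± 0.65), the isomerase Pdia3 (40.5 ± 2.20) and Hspa5 (39.6 ± 2.97). Atf4 and Canx, and Pdia3 and Hspa5, differed by less than the sum of their SDs, whereas the steps from Canx to Ssr2 and from Ssr2 to Pdia3 were larger than that. The sensor Ern1 (1.82 ± 0.13) and the degradation channel subunit Derl2 (1.92 ± 0.078) were lowest.

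To see what maze training does in healthy mice, WT VEH was compared with WT VEH_HC. Of the 34 ER genes, 13 were higher in trained mice 1 h after the last trial and 0 were lower, that is 38.2% higher, whereas 5.35% of all genes tested were called higher and 3.05% lower. The median log2 difference of the 34 genes was 0.16, against -0.0028 for all genes, and 20 of the 34 had an unadjusted p under 0.05, as did 4683 of all 16820 genes. The 0 lower is edgeR's count: DESeq2 called 14 higher and 2 lower, among them Calr (adjusted p = 0.0397), and 2 were lower too with no filter on low counts and without WT VEH_HC replicate 3. By role, 6 of 9 chaperones, 2 of 4 isomerases, 2 of 6 signalling genes, 2 of 6 degradation genes, 1 of 7 translocon subunits and 0 of 2 lectins were higher. All 16 choroid plexus markers were called higher in the same comparison, with a median log2 fold change of 3.49, as were 2 of 5 blood, 1 of 8 microglia and 1 of 7 astrocyte markers, and 1 of 10 hippocampal neuron markers was lower. The heat map of the learning experiment shows the 34 genes library by library.

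**Figure D1:**
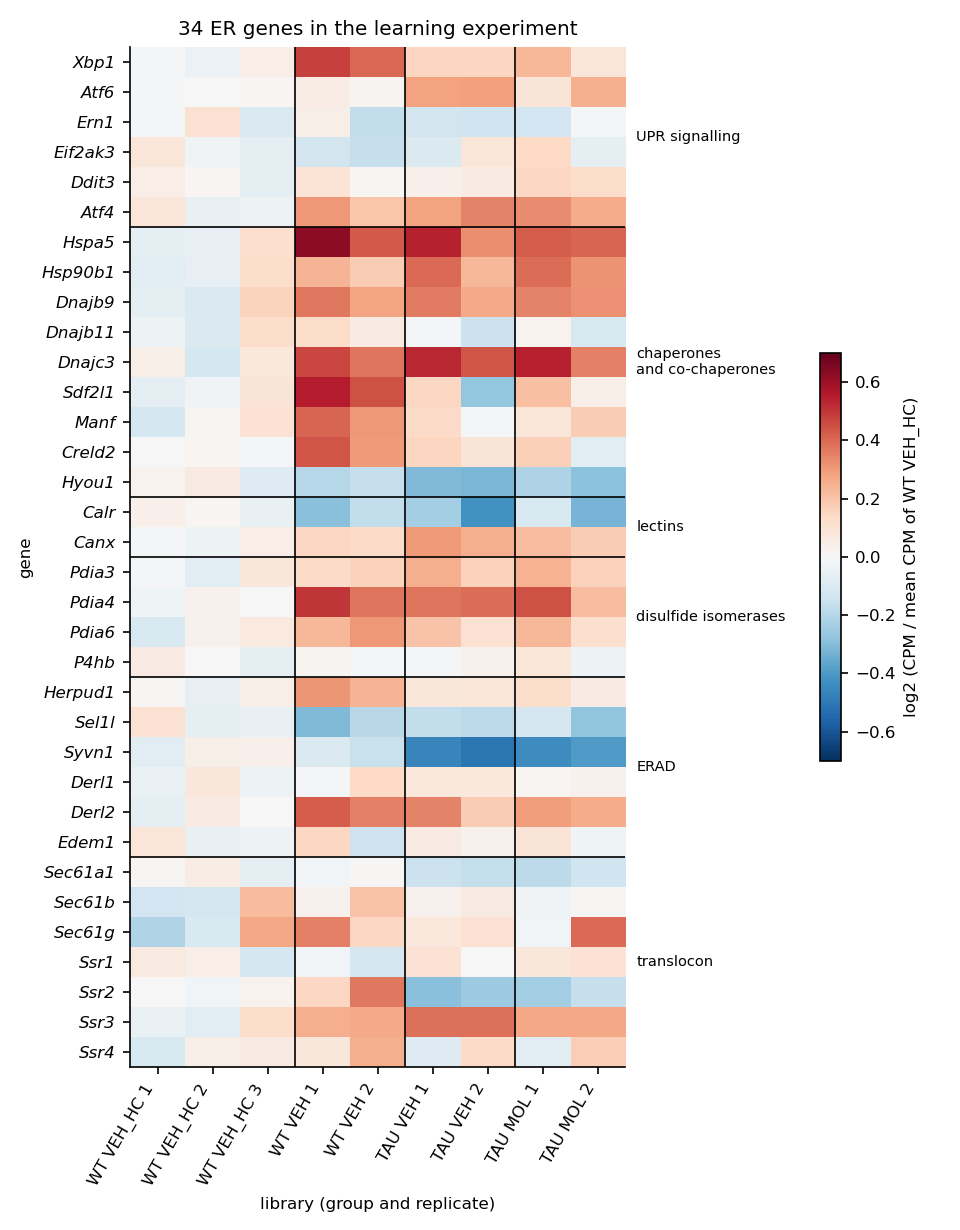
Heat map of the 34 genes (rows, grouped by role) in the 9 libraries of the learning experiment (columns). Colour gives the log2 ratio of each library's CPM to the mean of the 3 WT VEH_HC libraries. The 13 called genes are red in both WT VEH columns, as are uncalled genes such as Ssr2, Hsp90b1 and Pdia3, while Syvn1 and Ssr2 are blue in the 4 THY-Tau22 columns.

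Hspa5 (ENSMUSG00000026864, chr2:34627490-34632051 on mm9) encodes BiP, the main HSP70 chaperone of the ER and the protein that holds the UPR sensors inactive. Its level was 132, 134 and 151 CPM in the 3 home-cage libraries and 214 and 187 CPM in the 2 trained ones. The trained libraries were both above all home-cage libraries, as they were in 19 of the 34 genes (55.9%) and in 23% of all genes. The group means were 201 ± 19.1 (SD, n = 2) and 139 ± 10.5 CPM (n = 3). The log2 fold change was 0.53 ± 0.09 (SE, adjusted p = 0.0070), a ratio of 1.44. Xbp1 (ENSMUSG00000020484, chr11:5420662-5425896), the transcription factor activated by Ern1, stood at 55.1, 53.8 and 57.2 CPM at rest in the cage and at 77.3 and 73.2 CPM after training. It had the smallest adjusted p of the 34 genes (log2 fold change 0.44 ± 0.07, adjusted p = 0.0047). The counts do not separate spliced from unspliced Xbp1.

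Genes that work with BiP did not all change alike. Sdf2l1, a stress-induced protein that works in the BiP cycle, was at 8.64, 8.90 and 9.62 CPM in the home-cage libraries and at 13.3 and 12.3 CPM in the trained libraries (log2 fold change 0.50 ± 0.12, adjusted p = 0.034). Dnajc3, a BiP co-chaperone that also inhibits eIF2α kinases, went from 37.3, 33.3 and 38.2 to 50.2 and 47.1 CPM (0.42 ± 0.08, adjusted p = 0.0155). Dnajb9, the co-chaperone that keeps Ern1 in check, went from 19.0, 18.6 and 22.2 to 25.7 and 24.1 CPM (0.32 ± 0.09, adjusted p = 0.043). In none of these 3 genes did the groups overlap, where 23% of all genes were higher without overlap. The co-chaperone Dnajb11 did overlap (0.09 ± 0.08, adjusted p = 0.48), and Hyou1, the exchange factor of BiP, had a negative value that did not pass (-0.18 ± 0.06, adjusted p = 0.092). Manf, an ER-resident protein that is also secreted as a neurotrophic factor, was at 30.9, 34.1 and 36.2 CPM in the cage and 44.8 and 41.7 CPM after training (0.36 ± 0.08, adjusted p = 0.027), although its locus contains Rbm15b on the same strand and Vprbp on the opposite strand, and reads could not be assigned by strand. Creld2, a stress-induced protein with isomerase-like activity, went from 9.79, 9.89 and 9.75 to 13.3 and 12.1 CPM (0.37 ± 0.10, adjusted p = 0.041). The home-cage values of Creld2 were nearly equal, and both trained values lay well above them.

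Among the disulfide isomerases, which form and shuffle disulfide bonds, Pdia4 rose from 27.9, 29.1 and 28.5 to 40.3 and 36.9 CPM (0.44 ± 0.08, adjusted p = 0.011) and Pdia6 from 60.5, 66.4 and 68.4 to 76.5 and 80.3 CPM (0.27 ± 0.07, adjusted p = 0.043). Pdia3, the partner of the lectins, and P4hb, the classical isomerase, did not pass, with log2 fold changes of 0.15 ± 0.07 and 0.00 ± 0.06. Of the degradation genes, which send misfolded proteins back to the cytosol, Derl2 rose from 14.8, 16.03 and 15.5 to 20.7 and 19.7 CPM (0.39 ± 0.08, adjusted p = 0.019) and Herpud1, a scaffold of the ligase complex, from 45.3, 43.3 and 46.3 to 55.6 and 52.9 CPM (0.27 ± 0.06, adjusted p = 0.028). The ligase Syvn1 and its adaptor Sel1l had negative log2 fold changes that did not pass (-0.13 ± 0.06 and -0.25 ± 0.07, adjusted p = 0.21 and 0.056), and the Sel1l value was the lowest of the 34 genes. Ssr3 was the single translocon subunit that rose, from 79.7, 77.9 and 89.6 to 98.3 and 99.1 CPM (0.26 ± 0.07, adjusted p = 0.041), with Ssr2 next to it (0.26 ± 0.07, adjusted p = 0.0503).

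Among the 6 signalling genes, Xbp1 and Atf4 passed. Atf4, the transcription factor of the Eif2ak3 branch, rose from 90.2, 82.3 and 83.0 to 105 and 97.5 CPM (0.25 ± 0.07, adjusted p = 0.043). Ddit3 was at 17.8, 17.4 and 16.5 CPM in the home cage and at 18.4 and 17.4 CPM after training, so that the groups overlapped (0.06 ± 0.07, adjusted p = 0.65). The 3 sensor genes did not pass either, with log2 fold changes of 0.04 ± 0.06 for Atf6, -0.06 ± 0.10 for Ern1 and -0.14 ± 0.09 for Eif2ak3. In 5 genes (14.7%, against 20.8% of all genes) both trained libraries were below every home-cage library without a call. They were Sel1l, Syvn1, Eif2ak3, Calr and Hyou1, with Calr at -0.23 ± 0.08 (adjusted p = 0.092).

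ERSE or ERSE-II was in the window of 5 of the 12 genes that rose and had a promoter entry, and in 5 of the 16 others. Hspa5, Dnajc3, Creld2, Pdia6 and Herpud1 were the former, and Calr, Canx, Hsp90b1, Dnajb11 and Syvn1 the latter. The element was thus found on both sides of the threshold.

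Further ER genes, listed for the same 4 functions, were higher in 17 of 116 tested (14.7%, against 5.35% of all genes). They were lower in 0 of 116 (against 3.05% of all genes). Among them were 4 of 33 folding, 3 of 28 signalling, 4 of 26 degradation and 6 of 29 translocon genes. Atf3, a stress-induced transcription factor that is also an immediate early gene in neurons, changed most of those called, from 0.661, 1.03 and 1.02 to 1.89 and 1.91 CPM (log2 fold change 1.06 ± 0.21, adjusted p = 0.019). Next came Nfe2l2, the transcription factor of the oxidative stress response, from 14.0, 12.5 and 14.4 to 20.5 and 18.4 CPM (0.51 ± 0.10, adjusted p = 0.016).

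Ttr, the most abundant of the choroid plexus markers that rose with these genes, was at 31.5, 37.1 and 166 CPM in the home-cage and at 2117 and 1352 CPM in the trained libraries. With the mean level of these markers as a covariate, 0 of the 34 genes and 0 of all genes were called, and the folds of the 13 genes moved unequally. On the log2 scale Derl2 (0.38), Pdia4 (0.26), Creld2 (0.22) and Atf4 (0.21) were above 0.2, Hspa5 (0.02), Dnajc3 (0.02), Manf (0.03) and Herpud1 (0.03) were near 0, Sdf2l1 (0.18), Xbp1 (0.17) and Pdia6 (0.11) lay between, and Dnajb9 (-0.28) and Ssr3 (-0.15) were negative. The 2 groups do not overlap in these markers, so its part in the result cannot be told apart from that of training. In bulk tissue, moreover, a change in the number of cells of a type cannot be told apart from a change in RNA per cell. The count of 13 also rested on few libraries, as did the 1413 calls over all genes. Without WT VEH replicate 1 they were 0 and 73, without WT VEH replicate 2 they were 3 and 282, without WT VEH_HC replicate 1 they were 5 and 614, and without WT VEH_HC replicate 2 they were 7 and 952. In these 4 fits the 34 genes kept a median of 0.14 to 0.17 on the log2 scale. Without WT VEH_HC replicate 3 the counts rose to 17 and 2798, with a median of 0.215 for the 34 genes. With the 2 groups fitted alone the counts were 5 and 310. Once GC content and gene length were corrected for 7 of the 13 remained among 8 called, with 743 called over all genes and a median of 0.081 for the 34 genes. Hspa5, Xbp1, Pdia4, Dnajc3, Manf, Herpud1 and Derl2 were the 7 that remained, with Hspa5 at 0.47 and Xbp1 at 0.46 on the log2 scale. Of the 6 that did not, Sdf2l1 (0.49), Creld2 (0.37), Atf4 (0.26) and Pdia6 (0.23) stayed near their main values, and Dnajb9 (0.05) and Ssr3 (0.06) did not.

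**Figure D2:**
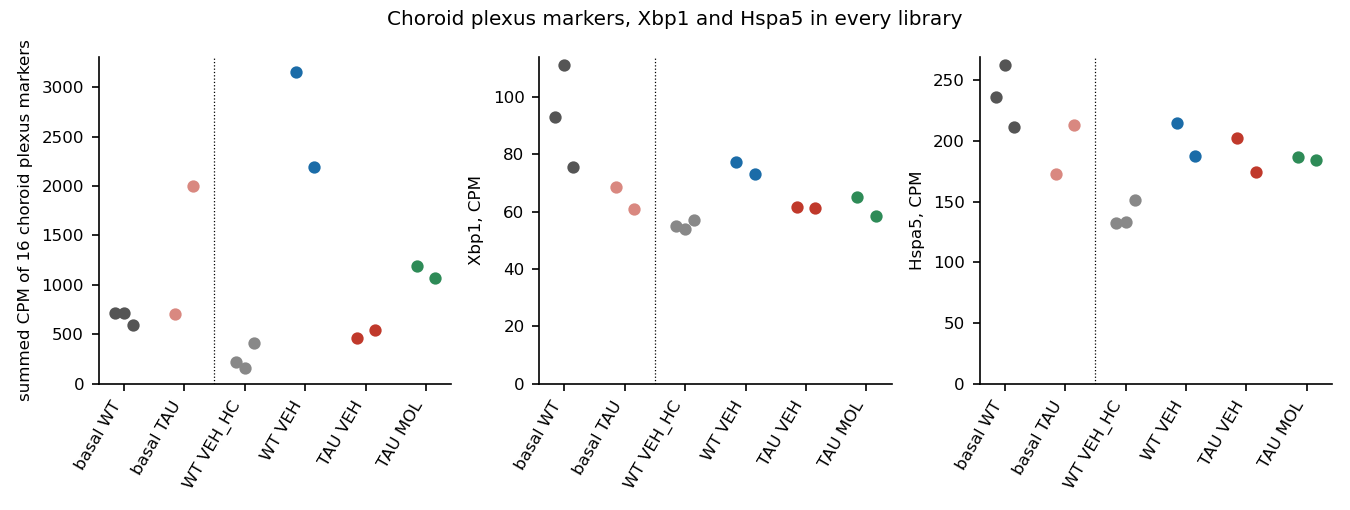
Summed CPM of the 16 choroid plexus markers, CPM of Xbp1 and CPM of Hspa5 in each library (1 point each), by group, with the basal experiment left of the dotted line. In the learning experiment the marker sum and Xbp1 are both highest in the 2 WT VEH libraries. Hspa5 is at 214 and 187 CPM in WT VEH and at 202 and 174 CPM in TAU VEH, where the marker sum is 465 to 546. These groups also differ in genotype and vehicle.

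The effect of the THY-Tau22 genotype with its vehicle in trained mice was read from TAU VEH against WT VEH. Few of the ER genes differed: 1 of 34 was higher (2.94%, against 3.61% of all genes) and 4 were lower (11.8%, against 10.8% of all genes), so that these shares were near the background. The lower genes came from 4 roles, and they included Xbp1. Xbp1 was at 61.6 and 61.4 CPM in TAU VEH and at 77.3 and 73.2 CPM in WT VEH (log2 fold change -0.29 ± 0.07, adjusted p = 0.020). Sdf2l1 was at 10.0 and 7.51 CPM against 13.3 and 12.3 CPM (-0.53 ± 0.14, adjusted p = 0.023). Syvn1, the ubiquitin ligase of ER-associated degradation, was at 60.9 and 58.9 CPM against 78.3 and 75.5 CPM (-0.36 ± 0.07, adjusted p = 0.0054). In these 3 genes both TAU VEH libraries were below both WT VEH libraries, as in 13 of the 34 genes (38.2%) and 29.4% of all genes. Ssr2 had the smallest adjusted p, at 41.5 and 42.5 CPM against 56.1 and 65.6 CPM (-0.53 ± 0.08, adjusted p = 0.0018). Atf6, the sensor that is itself a transcription factor, was the gene that was higher, at 89.8 and 90.0 CPM against 76.6 and 74.8 CPM (0.25 ± 0.07, adjusted p = 0.035).

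The remaining 29 genes did not pass. BiP itself was nearly level, with Hspa5 at 202 and 174 CPM in TAU VEH and 214 and 187 CPM in WT VEH (-0.09 ± 0.09, adjusted p = 0.60). Atf4 (0.06 ± 0.07, adjusted p = 0.65) and Ddit3 (-0.01 ± 0.08, adjusted p = 0.96) overlapped between the groups too. Manf came closest among the uncalled genes (-0.29 ± 0.09, adjusted p = 0.0507). The median of the 34 genes was -0.072, against 0.0041 for all genes. It was -0.019 without WT VEH replicate 1, -0.033 without TAU VEH replicate 2 and 0.075 with library size alone, where that of all genes was 0.15. Of the further ER genes, 3 of 116 were higher (2.59%, against 3.61% of all genes). Another 12 were lower (10.3%, against 10.8% of all genes), so that both shares were near the background. Among those called, the largest increases were in Uggt2, a glucosyltransferase-type folding sensor, from 10.1 and 9.56 to 14.7 and 11.9 CPM (0.45 ± 0.12, adjusted p = 0.030), and in Mbtps2, the protease that releases ATF6, from 18.1 and 17.0 to 24.1 and 23.4 CPM (0.44 ± 0.08, adjusted p = 0.0046). The largest decreases among those called were in Wfs1, an ER membrane protein abundant in CA1 neurons, from 330 and 254 to 159 and 149 CPM (-0.92 ± 0.18, adjusted p = 0.0050), and in Creb3l1, an ATF6-like factor, from 10.6 and 8.66 to 6.30 and 5.77 CPM (-0.67 ± 0.15, adjusted p = 0.011). Wfs1 also stands in the list of hippocampal neuron markers, of which 5 of 10 were lower in TAU VEH.

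The choroid plexus markers fell too, 16 of 16 in TAU VEH against WT VEH (median log2 fold change -2.51), and with their mean as a covariate 0 of the 34 genes and 0 of all genes were called. The log2 fold changes in that fit were -0.62 in Ssr2, -0.28 in Syvn1, 0.27 in Atf6, -0.31 in Sdf2l1 and -0.10 in Xbp1, so that those of Ssr2, Syvn1 and Atf6 stayed near their main values. After the correction for GC content and length, Ssr2 alone of the 34 genes was called (log2 fold change -0.32). In that fit 506 of all 16820 genes were called. Xbp1 was then at -0.28, Sdf2l1 at -0.29, Syvn1 at -0.11 and Atf6 at 0.13. Scaled by library size alone, without TMM, 5 genes were higher and 2 lower. Leaving out 1 library at a time left 1 to 3 of the calls, with Ssr2 called in each case, while the 2423 calls over all genes became 915 to 1276: 1 without WT VEH replicate 1, 2 without WT VEH replicate 2, 3 without TAU VEH replicate 1 and 1 without TAU VEH replicate 2. The part of GC content in these calls was not tested beyond that correction. Of the astrocyte markers 3 of 7 were higher in TAU VEH, and of the microglia markers 1 of 8 was lower.

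**Figure D3:**
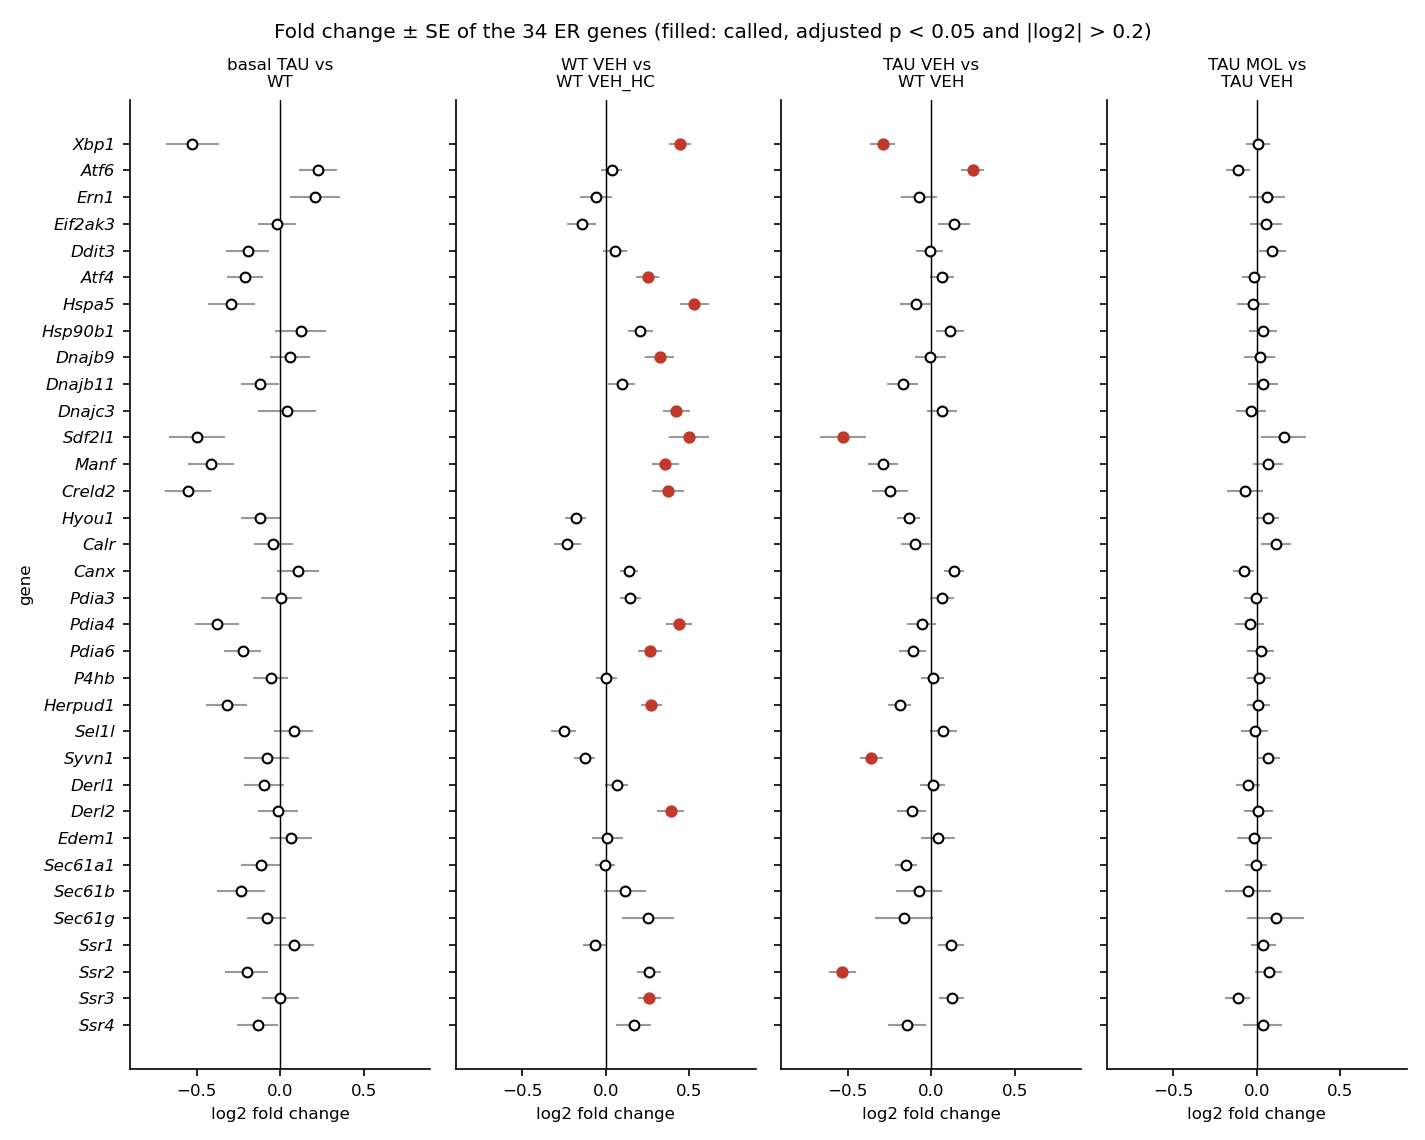
Log2 fold change of each of the 34 genes in 4 comparisons. Points give the estimate, bars the SE, and filled points the genes called. The 13 filled points of WT VEH vs WT VEH_HC all lie right of 0, TAU VEH vs WT VEH has 5 filled points, and the basal and TAU MOL vs TAU VEH panels have none.

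To place the trained THY-Tau22 mice on the same scale as the training response, TAU VEH and TAU MOL were set against WT VEH_HC, a comparison added after the data were seen. It differs from the home cage in genotype, vehicle and training at once and shares its 3 control libraries with the training comparison, so the values are given side by side and without a test between them. In TAU VEH 11 of the 34 genes were higher and 4 lower, where 16.2% and 18.2% of all genes were called. In TAU MOL 9 were higher and 2 lower, where 14% and 14.9% of all genes were called. Passing in 1 group and not in another does not show a difference, and the genes that rose in trained WT mice are given below by their calls as a description.

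Hspa5, Pdia4, Dnajb9, Dnajc3, Atf4, Derl2 and Ssr3 were the 7 genes called higher than the home cage in both THY-Tau22 groups as well. Their log2 fold changes were 0.25 to 0.53 in WT VEH, 0.27 to 0.49 in TAU VEH and 0.27 to 0.45 in TAU MOL. Hspa5 was at 0.53 ± 0.09, 0.44 ± 0.09 and 0.42 ± 0.09 in the 3 trained groups in that order, and Dnajc3 at 0.42 ± 0.08, 0.49 ± 0.08 and 0.45 ± 0.08. Dnajc3 stood at 52.2 and 49.2 CPM in TAU VEH and 52.9 and 46.3 CPM in TAU MOL, above all 3 home-cage libraries. Atf4 stood at 104 and 108 and at 107 and 102 CPM. Of all genes, 27.1% in TAU VEH and 26.1% in TAU MOL were above all home-cage libraries.

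Pdia6, Sdf2l1, Manf, Creld2, Xbp1 and Herpud1 were the 6 genes called in neither THY-Tau22 group. Their log2 fold changes against the home cage were 0.27 to 0.50 in WT VEH, -0.031 to 0.15 in TAU VEH and 0.053 to 0.18 in TAU MOL. Xbp1 was at 0.15 ± 0.07 in TAU VEH and 0.16 ± 0.07 in TAU MOL, and Sdf2l1 at -0.03 ± 0.13 and 0.13 ± 0.12. Of these 6, Xbp1 and Sdf2l1 were called in the direct comparison of TAU VEH with WT VEH and the other 4 were not, so that for those 4 no difference between the trained groups was shown. GC content, which moved with the groups, was 46.8 to 56.7% in the 6 genes (median 51.4%) and 38.3 to 54.1% in the 7 genes (median 43.9%). The sets were split by their calls, so their separation in the main fit was fixed by the split. In the fit corrected for GC content and length the 2 sets overlapped, and the part of GC content was not tested. The log2 fold changes against the home cage were then -0.12 to 0.45 in the 7 genes and 0.024 to 0.28 in the 6 genes in TAU VEH, with Ssr3 at 0.025, Derl2 at 0.076, Creld2 at 0.28 and Xbp1 at 0.18. In TAU MOL they were -0.079 to 0.41 and 0.073 to 0.30. In that fit 4 of the 34 genes and 1773 of all 16820 were called in TAU VEH, whereas TAU MOL had 3 and 1594, with Pdia4, Atf4 and Calr the 3 that remained of the 15 in TAU VEH and Hspa5 and Atf4 the 2 that remained of the 11 in TAU MOL. With the choroid plexus covariate 1 gene, Syvn1, was called in TAU VEH and 0 in TAU MOL. In these fits 2388 of all 16820 genes were called in TAU VEH and 47 in TAU MOL. Against the home cage, the 34 genes had a median of 0.069 on the log2 scale in TAU VEH and 0.11 in TAU MOL. In TAU VEH it was 0.082 without TAU VEH replicate 1 and 0.089 without replicate 2. In TAU MOL it was 0.091 without TAU MOL replicate 1 and 0.108 without replicate 2. These 4 fits left 1 library in the group, and fewer of the 34 genes and fewer of all genes were called in each. Under library size alone 20 genes were called in TAU VEH, 19 of them higher, and 18 in TAU MOL, 17 of them higher. Cell type markers differed as well: against the home cage, choroid plexus markers were higher in 6 of 16 in TAU VEH and 16 of 16 in TAU MOL, astrocyte markers were higher in 6 and 5 of 7, and hippocampal neuron markers were lower in 5 and 4 of 10.

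**Figure D4:**
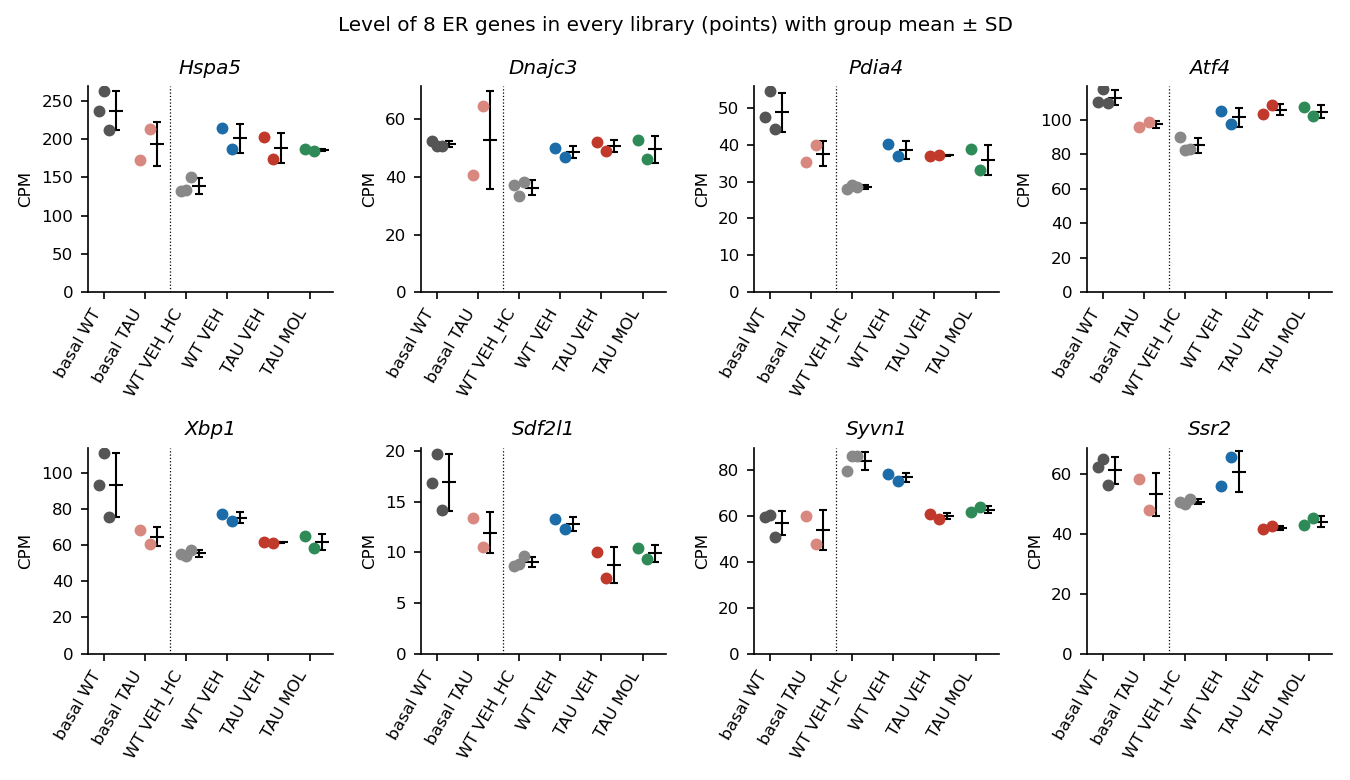
CPM of 8 of the 34 genes in every library (points) with the group mean ± SD (bars), basal experiment left of the dotted line. Hspa5, Dnajc3, Pdia4 and Atf4 in the upper row are above WT VEH_HC in all 3 trained groups, whereas among the learning groups Xbp1 and Sdf2l1 are highest in WT VEH, and Syvn1 and Ssr2 lowest in TAU VEH and TAU MOL.

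Syvn1, Hyou1, Hsp90b1 and Pdia3 were called against the home cage in both THY-Tau22 groups and not in trained WT mice, which by itself is no test of a difference. Syvn1 was lower in both groups (-0.49 ± 0.06 in TAU VEH, adjusted p = 0.00032, and -0.42 ± 0.06 in TAU MOL, adjusted p = 0.0012) and, as given above, lower than in WT VEH as well. Hyou1 was at 118 and 117 CPM in TAU VEH and 126 and 120 CPM in TAU MOL against 149, 153 and 138 CPM in the home cage (-0.32 ± 0.06 and -0.25 ± 0.06). Hsp90b1, the HSP90 chaperone of the ER, was called higher in both groups (0.32 ± 0.08 and 0.35 ± 0.08) and was at 0.21 ± 0.08 in WT VEH, without passing there. Its locus overlaps 1810014B01Rik on the opposite strand, and reads of the 2 could not be told apart. After the correction for GC content and length none of the 4 genes was called in either group. The log2 fold changes in TAU VEH and TAU MOL were then 0.064 and 0.13 in Hsp90b1, 0.024 and 0.049 in Pdia3, -0.16 and -0.12 in Hyou1, and -0.16 and -0.17 in Syvn1.

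The effect of CSP-TTK21 in trained THY-Tau22 mice was read from TAU MOL against TAU VEH. No difference in ER genes was detected: 0 of 34 were called, as were 0% of all genes in either direction by edgeR, and 0 of 34 had an unadjusted p under 0.05, against 1064 of all 16820 genes. DESeq2 called 0 of 34 and 56 of all genes, and edgeR with the 2 groups fitted alone called 60 of all genes and with no filter on low counts 233. Log2 fold changes ran from -0.12 in Ssr3 (SE 0.07) to 0.16 in Sdf2l1 (SE 0.14), with a median of 0.011. All 16 choroid plexus markers were higher in both TAU MOL libraries than in both TAU VEH libraries (median log2 fold change 1.17), with 0 called by edgeR, 1 by DESeq2 and 15 at an unadjusted p under 0.05. With their mean as a covariate the median of the 34 genes was -0.040, with Ssr3 at -0.25, Hspa5 at -0.20 and Dnajb9 at -0.19, and 0 were called. Hspa5 was at 187 and 184 CPM under CSP-TTK21 and 202 and 174 CPM under CSP alone (-0.02 ± 0.09). Xbp1 was at 65.0 and 58.6 against 61.6 and 61.4 CPM (0.01 ± 0.07), Atf4 at 107 and 102 against 104 and 108 CPM (-0.02 ± 0.07) and Ddit3 at 19.1 and 18.9 against 17.6 and 17.9 CPM (0.09 ± 0.08). The groups did not overlap in 4 genes that were higher (11.8%, against 21.5% of all genes) and 5 that were lower (14.7%, against 17.4%). The SEs ran from 0.06 in Canx to 0.17 in Sec61g, so small differences were not detectable with 2 libraries a group. In simulated counts, 1% of log2 changes of 0.3 and 44.5% of changes of 0.5 were found in this comparison. None of the 116 further ER genes was called either.

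Against WT VEH, 3 of the 34 genes were lower in TAU MOL (8.82%, against 5.02% of all genes) and 0 were higher (against 0.612%). Ssr2 was at 42.9 and 45.4 CPM (-0.46 ± 0.08, adjusted p = 0.012), Syvn1 at 61.8 and 63.8 CPM (-0.29 ± 0.07, adjusted p = 0.033) and Xbp1 at 65.0 and 58.6 CPM (-0.28 ± 0.07, adjusted p = 0.044). These 3 were also called in TAU VEH against the same WT VEH libraries. Hspa5 (-0.11 ± 0.09), Atf4 (0.05 ± 0.07) and Ddit3 (0.08 ± 0.08) did not pass. Log2 fold changes of the uncalled genes ran from -0.37 in Sdf2l1 to 0.19 in Eif2ak3. Of the further ER genes 5 of 116 were lower (4.31%, against 5.02% of all genes), a share near the background. The largest decreases among them were in Dad1 and Serp2. Dad1, a subunit of the oligosaccharyltransferase, went from 112 and 117 to 77.7 and 85.7 CPM (-0.49 ± 0.09, adjusted p = 0.012). Serp2, a ribosome-associated ER membrane protein, went from 57.8 and 69.7 to 46.0 and 48.4 CPM (-0.43 ± 0.10, adjusted p = 0.030). Choroid plexus markers were lower in 9 of 16, hippocampal neuron markers in 2 of 10, microglia markers in 1 of 8 and endothelial markers in 1 of 7. Astrocyte markers were higher in 2 of 7. None of the 3 calls held once 1 of the 4 libraries of these groups was left out, where 2 to 4 of all genes were called in place of 947, after the GC correction or with the choroid plexus covariate. With the covariate, where 2 of all genes were called, the log2 fold changes were -0.51 in Ssr2, -0.25 in Syvn1 and -0.19 in Xbp1. After the GC correction, where 21 of all genes were called, they were -0.29, -0.12 and -0.27 in the same order. Under library size alone 1 of the 34 genes was higher and 1 lower.

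In mice without training, THY-Tau22 was compared with WT to look for differences at baseline. None of the 34 genes was called, in a comparison in which 0.00613% of all genes were called higher and 0.0184% lower. DESeq2 called 0 of 34 and 40 of all 16324 genes, and 6 of the 34 and 803 of all genes had an unadjusted p under 0.05 in edgeR. Values leaned to lower levels: 24 of 34 log2 fold changes were negative, with a median of -0.089 against -0.0072 for all genes. Without basal WT replicate 2 the median was -0.048. Markers of other cells leaned one way as well, with 0 called by edgeR in each of the following lists and 1 choroid plexus marker called by DESeq2: choroid plexus markers were positive in 15 of 16 (median 0.90), microglia markers in 7 of 8 (0.21) and endothelial markers in 7 of 7 (0.098), while oligodendrocyte markers were negative in 7 of 7 (-0.48), blood markers in 5 of 5 (-0.54) and thalamus markers in 4 of 5 (-0.53). Astrocyte markers were positive in 4 of 7 (median 0.073), with 0 called by edgeR and 1 by DESeq2. Their sum was 4126 and 5304 CPM in THY-Tau22 and 3720 to 3835 CPM in WT. With the choroid plexus markers as a covariate the median of the 34 genes was -0.0845, and the part of the other lists was not tested. In 11 genes (32.4%, against 9.48% of all genes) both THY-Tau22 libraries were below all 3 WT libraries, and in 2 genes (5.88%, against 8.99%) above them.

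Creld2 had the lowest log2 fold change, at 15.9, 16.6 and 13.5 CPM in WT and 10.5 and 10.4 CPM in THY-Tau22 (-0.55 ± 0.14, adjusted p = 0.66). Xbp1 was at 93.1, 111 and 75.7 CPM in WT and at 68.6 and 60.9 CPM in THY-Tau22 (-0.53 ± 0.16, adjusted p = 0.90), and Sdf2l1 at 16.9, 19.7 and 14.2 against 13.4 and 10.5 CPM (-0.50 ± 0.17, adjusted p = 0.90). In both Xbp1 and Sdf2l1 the range over the WT libraries was wider than the difference between the group means. Manf (-0.41 ± 0.14), Pdia4 (-0.38 ± 0.13) and Herpud1 (-0.32 ± 0.12) were the other 3 genes with an unadjusted p under 0.05. Hspa5 was at 236, 262 and 211 CPM against 173 and 213 CPM, with overlap (-0.29 ± 0.14, adjusted p = 0.90), and its log2 fold change ran from -0.50, with the choroid plexus covariate, to -0.13 over the alternatives, without a call. Atf4 was at 110, 118 and 110 against 95.8 and 98.6 CPM (-0.21 ± 0.11) and Ddit3 at 23.9, 27.3 and 25.2 against 24.3 and 20.2 CPM (-0.20 ± 0.13). At the other end, Atf6 was highest, at 75.7, 75.7 and 74.5 against 80.1 and 96.1 CPM (0.23 ± 0.12, adjusted p = 0.90). The 2 THY-Tau22 libraries differed from each other in Dnajc3 (40.7 and 64.8 CPM) and Hsp90b1 (182 and 264 CPM), and the second of them was also the library with 1998 CPM of choroid plexus markers and the correlation of -0.60 with GC content. The log2 fold change of Dnajc3 was 0.038, and it was -0.068 after the GC correction and -0.36 with the choroid plexus covariate. That of Hsp90b1 was 0.12, 0.038 and -0.19 in the same order. The SEs of the 34 genes ran from 0.11 to 0.17. In simulated counts of this comparison, 0% of log2 changes of 0.3 and 9% of changes of 0.5 were found. None of the 115 further ER genes tested was called.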

How the data were processed

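Poly-A RNA of the dorsal hippocampus was sequenced as single-end 50-base reads from an unstranded kit. Per the submitters' processing notes, the authors used CASAVA 1.8.2, TopHat2 2.0.10 and Bowtie2 2.1.0 on mm9, HTSeq 0.5.4p3 and DESeq2, and the study's methods give uniquely aligned reads on Ensembl genes. The authors deposited raw counts per gene, which were used for all tests. Beside the counts the authors deposited a normalized signal, in which each library's counts are scaled by a single factor, and columns of their own comparisons (fold changes and p-values), which were not used. The study states that 3 of the 12 learning libraries were left out after the fact because they varied greatly. They came from mice of the same litter and were not analysed here. Nothing in the labels ties replicate numbers to litters or days. The p-values thus measure the spread between the libraries kept, which may be smaller than that between mice. The effect of this exclusion was not tested.

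Counts were tested with edgeR 4.0.16 in R 4.3.3 (quasi-likelihood F test, TMM, filterByExpr, Benjamini-Hochberg adjustment over all genes tested). One fit held the 5 basal and another the 9 learning libraries. As another tool, DESeq2 1.42.0 was run. The tests were first tried on simulated counts with 200 changed genes. They found 0 to 2.5% of log2 changes of 0.3 over the comparisons tried. Of changes of 0.5 they found 9% in the basal comparison and 44.5 to 55.5% in the others. Of changes of 1 they found 88.5 to 94%. Other alternatives were DESeq2's size factors, library size alone, no low-count filter, no limit on the fold change, only the 2 groups compared, the replicate number as a block, a loess correction per library for GC content and length (span 0.3), the mean log2 CPM of the choroid plexus markers (prior count 1) as a covariate, and leaving out each library. Gene positions came from the mm9 GENCODE annotation and promoters from RefSeq (GRCm38.p6), placed on mm9. Of the other ER genes, H47 and C78339 were matched through RefSeq synonyms of Vimp and Fam8a1. Figures were drawn with Python 3.11.15 and matplotlib 3.10.9.

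The 34 genes, the other lists and the tests were chosen with earlier results of these data known. Named with values were Hspa5, Xbp1, Atf4 and Ddit3 in every comparison, each of the 34 genes called in a planned comparison, the largest and smallest log2 fold change of the rest, the 2 largest increases and decreases among called genes of the other ER lists, Ttr and Thy1. Other genes were named after their values were seen, as were the 2 comparisons with WT VEH_HC as the control of THY-Tau22 groups.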

Additional observations from a re-analysis of the deposited data

How the results depend on the processing

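Counts of the 34 genes called changed with the processing as follows. For WT VEH against WT VEH_HC, 13 became 8 after the GC and length correction, 0 with the choroid plexus covariate, 5 with only the 2 groups and 0 to 17 on leaving out 1 library. The other alternatives gave 13 to 17, with 2 of them lower by DESeq2 and with no filter on low counts. For TAU VEH against WT VEH, 5 became 7 (5 higher, 2 lower) with library size alone, 1 after the GC correction, 0 with the covariate and 1 to 3 on leaving out 1 library. For TAU MOL against WT VEH, 3 became 0 after the GC correction, with the covariate and on leaving out 1 of the 4 libraries of these groups. For TAU VEH against WT VEH_HC, 15 (11 higher, 4 lower) became 20 (19 higher, 1 lower) with library size alone, 4 after the GC correction, 1 (lower) with the covariate and 9 to 15 on leaving out 1 library. For TAU MOL against WT VEH_HC, 11 became 18 with library size alone, 3 after the GC correction, 0 with the covariate and 4 to 13 on leaving out 1 library. In the basal comparison and in TAU MOL against TAU VEH, 0 were called under every alternative. In the other comparisons the calls over all genes changed too when 1 library was left out. The cause of these changes was not tested.

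Genes also crossed the threshold from below: Ssr2 stayed uncalled after training in 7 of 13 alternatives, Hsp90b1, Calr and Hyou1 in 11 of 13 each, and Manf in TAU VEH against WT VEH in 9 of 12. Called genes turned sign, without passing, in 7 cases. With the covariate, Dnajb9 and Ssr3 were at -0.28 and -0.15 after training, and Dnajb9 at -0.060 in TAU MOL against WT VEH_HC. After the GC correction, Canx and Dnajb9 were at -0.030 and -0.12 in TAU VEH against WT VEH_HC, and Dnajb9 and Ssr3 at -0.079 and -0.078 in TAU MOL against WT VEH_HC. Library size alone turned the split of all genes: 2578 higher and 1020 lower in TAU VEH against WT VEH, where TMM gave 608 and 1815, and 757 and 326 in TAU MOL against WT VEH, where TMM gave 103 and 844. Against WT VEH_HC it gave 4988 and 1530 in TAU VEH (TMM 2724 and 3058) and 4430 and 1146 in TAU MOL (TMM 2353 and 2511). With the replicate number as a block, 17 of the 34 genes were called after training (15 higher and 2 lower) in place of 13, while the calls over all genes rose from 1413 to 3000. Deviations of same-numbered libraries from their group means had correlations of -0.16 to 0.24. In a group of 2 libraries the deviations mirror each other, so these values cannot decide whether libraries were paired. The numbers were taken as names, since nothing in the labels ties them to litters or days.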
